A study of Mus musculus with 4 samples.

Results

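Macrophages in tumours release growth factors that act on tumour cells, vessels and other stromal cells, and the 10 genes described here encode such factors. They are Vegfa, Vegfb, Igf1, Pdgfa, Pdgfb, Pdgfc, Tgfb1, Hbegf, Csf1 and Il10, a list of named genes drawn up with earlier results of these data known, out of 55029 gene identifiers in the table. All 10 were matched, each to a row of its own, and all 10 had been tested by the authors. The samples were mouse macrophages obtained from MCA fibrosarcomas (9609 parent, genotype WT in the labels) and treated in culture with exosomes, small vesicles that cells release. Of the 4 samples, 2 received MEK1-hi exosomes and 2 received MEK1-low exosomes, which the labels also mark GFP. MEK1, the product of Map2k1, is the kinase directly upstream of ERK. The labels do not say how the macrophages were isolated, how long they were treated, or whether replicates were separate cultures. Because the MEK1-low exosomes carry the GFP mark, the effect of MEK1 content and of that difference cannot be told apart, and no untreated macrophages were among the samples.

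VEGF-A drives the growth and leakiness of blood vessels, and VEGF-B supports vessel survival and lipid uptake by endothelium. The PDGF chains are mitogens of fibroblasts and pericytes, IGF-1 supports growth and survival, and HB-EGF is a membrane-anchored ligand of the EGF receptor that is shed by proteases. TGF-beta 1 is secreted in a latent form and acts on matrix and immune cells once released from it. CSF-1 sustains macrophages themselves, and IL-10 restrains inflammatory gene expression. In tumours these factors are known for building vessels and stroma and for dampening immunity.

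None of the 10 growth factor genes changed between macrophages given MEK1-hi and MEK1-low exosomes at a q-value under 0.05 in the authors' deposited table, which applies the Cuffdiff test. Over all 12648 loci tested, 2.44% passed that threshold. The values were the authors' group FPKM (fragments per kilobase of transcript, scaled to library size), with 1 value per group, so that no spread between samples can be shown. Of the 10 genes, 5 had a higher and 5 a lower value with MEK1-hi exosomes, or 6 and 4 after rescaling both groups to equal FPKM totals or upper quartiles, when Pdgfa changed side. The ratio of the MEK1-hi over the MEK1-low value lay between 0.876 for Csf1 and 1.31 for Pdgfc. The median log2 ratio was 0.00 over the 10 genes, as it was over all loci tested. The median absolute log2 ratio was 0.093 over the 10 genes and 0.16 over all loci tested.

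Promoter sequences are shown for the most abundant members (Igf1 and Tgfb1), for the classical vessel factor (Vegfa) and for the member with the largest ratio (Pdgfc). RefSeq windows (GRCm38.p6) were used for 7 of the 10 genes, Vegfa, Vegfb, Igf1, Pdgfa, Pdgfc, Tgfb1 and Csf1, in 9 windows. No window of Hbegf, Pdgfb or Il10 was used, so the motif counts do not cover these genes. Each run is the 250 bases before the start, 5′ to 3′ along the gene's strand. The positions are chr10:87860861-87861110 (plus strand) for Igf1, chr7:25686752-25687001 (plus) for Tgfb1, chr17:46032378-46032627 (minus) for Vegfa and chr3:81036166-81036415 (plus) for Pdgfc. Capitals mark matches, on either strand, to the motifs of AP-1 (TGANTCA), ETS factors (CCGGAA), HIF (ACGTG), the GC box bound by SP1 (GGGCGG) and the TATA box (TATAAA). No marked matches overlap each other in these runs.
Igf1: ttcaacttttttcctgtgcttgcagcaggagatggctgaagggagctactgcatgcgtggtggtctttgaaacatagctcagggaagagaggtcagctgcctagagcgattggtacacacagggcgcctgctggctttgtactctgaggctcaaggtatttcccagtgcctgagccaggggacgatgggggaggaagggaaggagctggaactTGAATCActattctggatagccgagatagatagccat
Tgfb1: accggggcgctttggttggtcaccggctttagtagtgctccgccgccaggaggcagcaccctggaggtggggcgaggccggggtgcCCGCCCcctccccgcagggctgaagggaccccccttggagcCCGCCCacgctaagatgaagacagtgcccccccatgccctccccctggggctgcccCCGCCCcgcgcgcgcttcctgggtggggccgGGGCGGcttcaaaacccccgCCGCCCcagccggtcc
Vegfa: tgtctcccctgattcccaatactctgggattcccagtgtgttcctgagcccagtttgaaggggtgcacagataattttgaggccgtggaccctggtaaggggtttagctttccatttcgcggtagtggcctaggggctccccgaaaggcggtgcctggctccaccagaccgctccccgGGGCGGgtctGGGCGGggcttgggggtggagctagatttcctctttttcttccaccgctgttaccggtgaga
Pdgfc: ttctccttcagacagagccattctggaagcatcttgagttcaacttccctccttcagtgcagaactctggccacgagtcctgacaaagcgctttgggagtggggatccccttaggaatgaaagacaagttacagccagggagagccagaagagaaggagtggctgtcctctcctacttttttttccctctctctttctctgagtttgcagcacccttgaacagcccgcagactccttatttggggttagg

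The GC box was the motif found most often. It stood in 7 of the 9 windows, from 5 of the 7 genes, and in 32.7% of 32851 mouse windows of the same length. Tgfb1 held 5 of them in a window of 75.2% G and C, and Vegfa held 2 in a window of 59.2%. Igf1 and Pdgfc had no GC box in windows of 52.8% and 50.8%. Igf1 held the only AP-1 match of the 9 windows, 37 bases before a start that lies 2846 bases inside the gene as GENCODE M21 draws it, and 6.75% of all windows held one. An ACGTG match appeared in 1 member window, at an internal start of Vegfa, against 16.6% of all windows. ETS and TATA box matches were in 0 of the 9 windows, against 12.0% and 12.4% of all windows. Such a match describes letters only and does not show that a factor binds.

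Levels ran over 124-fold with MEK1-hi exosomes and 105-fold with MEK1-low exosomes, from Il10 to Igf1. Because FPKM is scaled by transcript length, levels of different genes can be set side by side. Igf1, Tgfb1 and Pdgfb together made up 84.7% of the summed FPKM of the 10 genes with MEK1-hi exosomes and 83.9% with MEK1-low exosomes. That sum was 544 FPKM with MEK1-hi and 512 FPKM with MEK1-low exosomes, and without Igf1 it was 244 and 246 FPKM in the same order. In both groups the order began Igf1, Tgfb1, Pdgfb, Pdgfa, Vegfa, Vegfb, and it ended with Hbegf and Il10. Pdgfc and Csf1 changed places between them. Pdgfa exceeded Vegfa by a factor of only 1.004 with MEK1-hi and 1.02 with MEK1-low exosomes, so these neighbours have no order that the data can show.

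**Figure D1:**
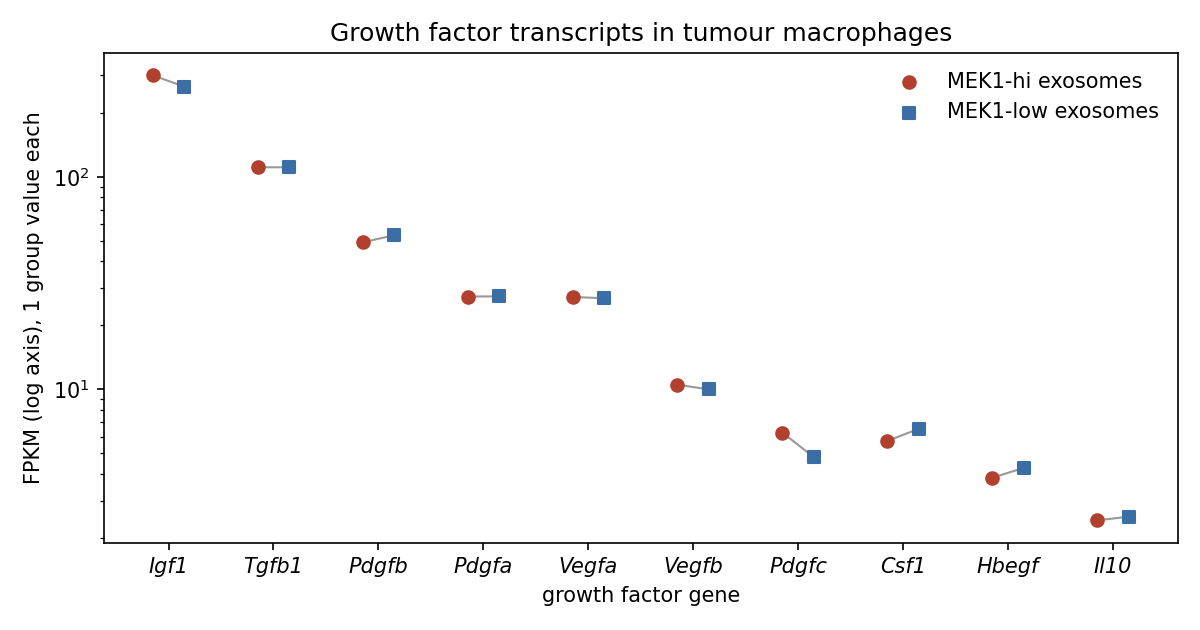
Group FPKM (log axis) of the 10 growth factor genes with MEK1-hi exosomes (red circles, left of each pair) and MEK1-low exosomes (blue squares, right), sorted by the MEK1-hi value, with a grey line joining the values of a gene and no error bars because 1 value per group was deposited. Igf1 is highest at 301 and 266 FPKM and Il10 lowest at 2.42 and 2.52 FPKM, and the joining lines are close to flat.

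Vegfa (chromosome 17, 46016993 to 46032369 in mm10, minus strand) encodes the main vessel growth factor of tumours. It stood at 27.3 FPKM with MEK1-hi exosomes and 26.8 FPKM with MEK1-low exosomes. The log2 ratio was 0.022 (p = 0.912, q = 0.999 in the authors' deposited table). A standard error of the log2 ratio can be worked back from that p-value and the ratio if the test is taken as two-sided and normal, and it rests on the authors' model of variance. For Vegfa it was 0.196, which gives a 95% interval of the ratio from 0.778 to 1.32. The value sums all Vegfa mRNAs, for which GENCODE M21 lists 8 coding transcripts, so the splice forms that differ in matrix binding are not resolved.

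Vegfb (chromosome 19, 6982473 to 6987651, minus strand) stood at 10.5 FPKM with MEK1-hi and 10.004 FPKM with MEK1-low exosomes. Its log2 ratio was 0.074 (q = 0.999 in the authors' deposited table), with an interval of the ratio from 0.796 to 1.39. Vegfa exceeded Vegfb 2.59-fold with MEK1-hi and 2.68-fold with MEK1-low exosomes. Vegfa was the higher of the vessel factors in both groups.

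Pdgfc (chromosome 3, 81036416 to 81214040, plus strand) encodes a PDGF chain that is secreted inactive and needs proteolysis. It was the member farthest from equality, at 6.27 FPKM with MEK1-hi exosomes and 4.79 FPKM with MEK1-low exosomes. The log2 ratio of 0.39 had a p-value of 0.0382 before adjustment and a q-value of 0.499 in the authors' deposited table, so it did not pass. Over all loci tested, 8.66% had p below 0.05 before adjustment in the authors' deposited table, 3.53% with a higher and 5.12% with a lower value, and Pdgfc was the 1 member of 10 that did. The interval of its ratio ran from 1.01 to 1.69, and it was the only member whose interval left out equality. An antisense gene, Gm16000, shares exonic bases with Pdgfc, and whether the authors counted by strand is not given here.

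Pdgfb (chromosome 15, 79995874 to 80014977, minus strand), whose product binds both PDGF receptors, was the most abundant PDGF gene. It stood at 49.2 FPKM with MEK1-hi and 53.2 FPKM with MEK1-low exosomes, a log2 ratio of -0.11 (q = 0.999 in the authors' deposited table). Pdgfa (chromosome 5, 138976014 to 138997370, minus strand), which binds mainly the alpha receptor, stood at 27.4 FPKM in both groups. Its log2 ratio was -0.0021 (q = 0.999 in the authors' deposited table). The intervals of the ratio ran from 0.756 to 1.13 for Pdgfb and from 0.739 to 1.35 for Pdgfa. Pdgfb exceeded Pdgfc 7.84-fold with MEK1-hi and 11.1-fold with MEK1-low exosomes. Pdgfa shares exonic bases with an antisense gene, 6330403L08Rik, whose reads may not be told apart from its own.

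Igf1 (chromosome 10, 87858265 to 87937042, plus strand) was the most abundant of the 10, above 97.6% of all tested loci in mean level. It stood at 301 FPKM with MEK1-hi and 266 FPKM with MEK1-low exosomes. The log2 ratio was 0.18 (p = 0.416, q = 0.999 in the authors' deposited table). The interval of the ratio ran from 0.839 to 1.53. Igf1 made up 55.2% of the members' summed FPKM with MEK1-hi and 51.9% with MEK1-low exosomes.

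Tgfb1 (chromosome 7, 25687002 to 25705077, plus strand) stood at 111 FPKM in both groups. Its log2 ratio was 0.0022 (p = 0.987, q = 0.999 in the authors' deposited table). The implied error of 0.133 was the smallest of the 10, and the interval of the ratio, from 0.836 to 1.20, the narrowest on the log2 scale. With the natural log of the ratio divided by the deposited test statistic instead, the error was 0.151 for Tgfb1 and 0.149 for Pdgfb. Their order therefore depends on the method.

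Hbegf (chromosome 18, 36504927 to 36515805, minus strand) was low, at 3.84 FPKM with MEK1-hi and 4.28 FPKM with MEK1-low exosomes. Its log2 ratio was -0.16 (q = 0.999 in the authors' deposited table), with an interval of the ratio from 0.642 to 1.26. Csf1 (chromosome 3, 107741048 to 107760469, minus strand) had the lowest ratio, at 5.72 FPKM with MEK1-hi and 6.53 FPKM with MEK1-low exosomes. The log2 ratio of Csf1 was -0.19 (p = 0.383, q = 0.999 in the authors' deposited table), with an interval of the ratio from 0.651 to 1.18. Neither gene passed the test, although both values were nominally lower with MEK1-hi exosomes.

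Il10 (chromosome 1, 131019845 to 131024974, plus strand) was the least abundant member, at 2.42 FPKM with MEK1-hi and 2.52 FPKM with MEK1-low exosomes. It still exceeded 20.3% of the loci tested in mean level. The log2 ratio was -0.056 (p = 0.859, q = 0.999 in the authors' deposited table). Its implied error of 0.317 was the largest of the 10. The interval of the ratio ran from 0.625 to 1.48, so a moderate difference in Il10 in either direction would not have been seen.

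Across the 10 genes, every implied interval lay within a 2-fold change in either direction, and 5 of them lay within a 1.5-fold change. Among the 309 loci called in the authors' deposited table the smallest absolute log2 ratio was 0.48, and 268 of them differed by at least 1.5-fold. Pdgfc, at 0.39, stood below that smallest called value. Its absolute log2 ratio exceeded that of 80.4% of tested loci, against 57.5% for Csf1 and 54.8% for Igf1, and Tgfb1 and Pdgfa stood among the lowest 0.690% and 0.643%.

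**Figure D2:**
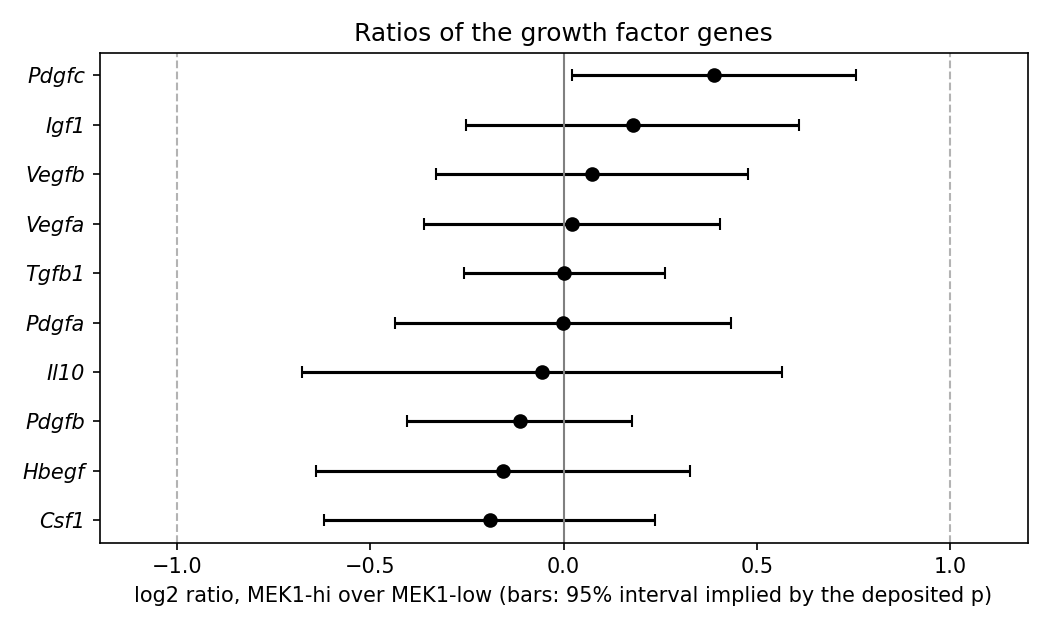
Log2 ratio of the MEK1-hi over the MEK1-low group value for the 10 growth factor genes (points), with 95% intervals implied by the authors' deposited p-values (bars). Dashed lines mark a 2-fold change, and 9 of the 10 bars cross 0, all but that of Pdgfc at 0.39.

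**Figure D3:**
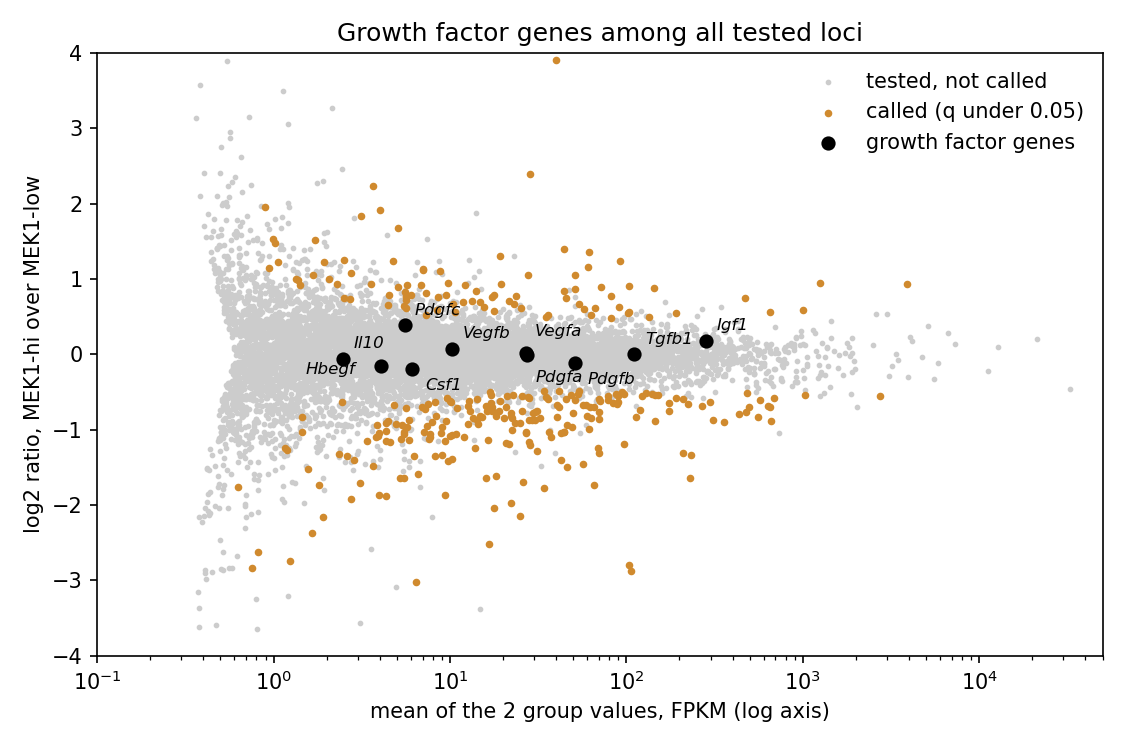
Log2 ratio of MEK1-hi over MEK1-low against the mean of the 2 group values in FPKM (log axis) for 12599 tested loci, with called loci in orange and the 10 growth factor genes in black. The growth factor genes span the range from Il10 to Igf1 in level and stay inside the grey band of loci that were not called; 7 loci lie beyond the axes.

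Receptors for these factors were unevenly expressed in the macrophages themselves. None of 15 receptor genes tested was called by Cuffdiff, beside 2.44% of all loci tested. With a higher value in 8 and a lower value in 7, their median log2 ratio was 0.037. In the authors' deposited table, 1 with a higher and 2 with a lower value had p below 0.05 before adjustment. The shares over all loci tested were 3.53% and 5.12%. Csf1r, the receptor of CSF-1 that marks macrophages, stood at 672 FPKM with MEK1-hi and 855 FPKM with MEK1-low exosomes (q = 0.999 in the authors' deposited table). Its level exceeded that of Csf1 117-fold with MEK1-hi and 131-fold with MEK1-low exosomes. Il34, the other ligand of this receptor, stood at 0.751 and 0.740 FPKM in the same order.

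Neuropilins, the co-receptors of VEGF-A, were abundant. Nrp1, in a locus joined with Mir1903, stood at 127 FPKM with MEK1-hi and 102 FPKM with MEK1-low exosomes (p = 0.0336, q = 0.466 in the authors' deposited table). Nrp2 stood at 77.0 FPKM with MEK1-hi and 94.4 FPKM with MEK1-low exosomes (p = 0.0498, q = 0.576 in the authors' deposited table). The VEGF receptor kinases were scarce by comparison, with Flt1 at 1.66 and 1.17 FPKM and Kdr at 0.695 and 0.618 FPKM, MEK1-hi first.

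The IGF-1 receptor gene Igf1r stood at 2.89 FPKM with MEK1-hi and 3.40 FPKM with MEK1-low exosomes, so that its ligand exceeded it 104-fold and 78.2-fold in the same order. Pdgfra and Pdgfrb, the PDGF receptors, did not reach 0.5 FPKM in either group and lacked a test. Tgfbr1 and Tgfbr2, the kinases that receive TGF-beta, stood at 57.0 and 40.2 FPKM with MEK1-hi and at 61.5 and 33.2 FPKM with MEK1-low exosomes. The EGF receptor gene Egfr stood at 1.04 FPKM with MEK1-hi and 0.511 FPKM with MEK1-low exosomes (q = 0.886 in the authors' deposited table). Il10ra, the ligand-binding chain for IL-10, stood at 35.1 FPKM with MEK1-hi and 46.7 FPKM with MEK1-low exosomes (p = 0.00445, q = 0.127 in the authors' deposited table). It had the smallest p of the receptor list and did not pass.

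Adam17, which encodes the sheddase that frees HB-EGF and other EGF receptor ligands from the membrane, fell to 79.4 FPKM with MEK1-hi exosomes, against 115 FPKM with MEK1-low exosomes. Its log2 ratio was -0.53 (q = 0.0362 in the authors' deposited table). It was the 1 called of 17 release and activation genes tested, with 0 higher, beside 1.69% of all tested loci called lower and 0.751% called higher. Their median log2 ratio was -0.015. Rhbdf2, which carries ADAM17 to the cell surface, stood at 21.1 and 24.6 FPKM, and Adam10, a related sheddase, at 81.0 and 71.9 FPKM, MEK1-hi first. Cd9, a tetraspanin known to associate with the HB-EGF precursor, stood at 789 FPKM with MEK1-hi and 1015 FPKM with MEK1-low exosomes (p = 0.0184, q = 0.322 in the authors' deposited table).

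Plau, the urokinase that also activates PDGF-D, stood at 499 FPKM with MEK1-hi and 365 FPKM with MEK1-low exosomes and just missed the less strict threshold of 0.1 (q = 0.104 in the authors' deposited table). Plat, the plasminogen activator known to process PDGF-C, stood at 0.635 and 0.848 FPKM, MEK1-hi first. Nrros, which anchors latent TGF-beta 1 on myeloid cells, stood at 110 FPKM with MEK1-hi and 111 FPKM with MEK1-low exosomes (q = 0.999 in the authors' deposited table). Itgav, an integrin chain that takes part in its release, stood at 78.7 and 60.3 FPKM, and Itgb8 stood under 0.5 FPKM in both groups. Furin, the convertase that cuts several of these precursors, stood at 29.6 FPKM with MEK1-hi and 30.2 FPKM with MEK1-low exosomes.

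Genes of TGF-beta signalling and its targets split in direction. Of 17 tested in the authors' deposited table, 1 rose and 1 fell, beside 0.751% of all tested loci called higher and 1.69% called lower, and the median log2 ratio was -0.15. Id1, an inhibitor of differentiation that BMP and TGF-beta signals control, rose to 93.3 FPKM with MEK1-hi exosomes, against 50.2 FPKM with MEK1-low exosomes (log2 ratio 0.90, q = 0.00349 in the authors' deposited table). Tgfbi, a secreted matrix protein named for its induction by TGF-beta, fell to 494 FPKM with MEK1-hi exosomes, against 803 FPKM with MEK1-low exosomes (log2 ratio -0.70, q = 0.00349 in the authors' deposited table). Smad7, the feedback inhibitor of the pathway, stood at 9.60 and 9.23 FPKM, and Id2 at 318 and 313 FPKM, MEK1-hi first, each with q = 0.999 in the authors' deposited table.

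Genes of IL-10 signalling and its targets included 2 that fell among 11 tested, with 0 higher, beside 1.69% of all tested loci called lower and 0.751% called higher. Of the 11, 10 had lower values, or 9 after rescaling to equal FPKM totals or upper quartiles, and over all tested loci 6344 had higher and 6304 lower values before rescaling. Their median log2 ratio was -0.14. Socs3, a feedback inhibitor of STAT3 signalling, fell to 5.66 FPKM with MEK1-hi exosomes, against 14.9 FPKM with MEK1-low exosomes (log2 ratio -1.39, q = 0.00349 in the authors' deposited table). Bcl3, a nuclear partner of NF-kB, fell to 13.3 FPKM with MEK1-hi exosomes, against 21.5 FPKM with MEK1-low exosomes (log2 ratio -0.70, q = 0.00349 in the authors' deposited table). Both genes are also controlled by signals other than IL-10. Stat3 stood at 26.8 and 28.9 FPKM and Zfp36, which destabilises cytokine mRNAs, at 114 and 117 FPKM, MEK1-hi first, each with q = 0.999 in the authors' deposited table.

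The hypoxia response genes that accompany Vegfa had a median log2 ratio of -0.058 over 13 tested, of which 1 rose and 0 fell, beside 0.751% of all tested loci called higher and 1.69% called lower. The 1 that rose was Epas1, a hypoxia-inducible transcription factor subunit, at 1.50 FPKM with MEK1-hi exosomes, against 0.539 FPKM with MEK1-low exosomes (log2 ratio 1.48, q = 0.0157 in the authors' deposited table). Its test statistic was 1.93 in the authors' deposited table, and the call ends where an absolute statistic of at least 2 is required. Hif1a, in a locus joined with Snapc1 and Gm49321, stood at 37.9 and 43.4 FPKM, and the glucose transporter gene Slc2a1 at 61.4 and 77.9 FPKM, MEK1-hi first, neither of them called. Of 14 genes for adaptors and PI3K-AKT kinases that serve growth factor receptors, 0 were called by Cuffdiff, beside 2.44% of all loci tested. Their median log2 ratio was -0.053. At p below 0.05 before adjustment in the authors' deposited table, 0 were higher and 1 lower, beside 3.53% and 5.12% of all loci tested.

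**Figure D4:**
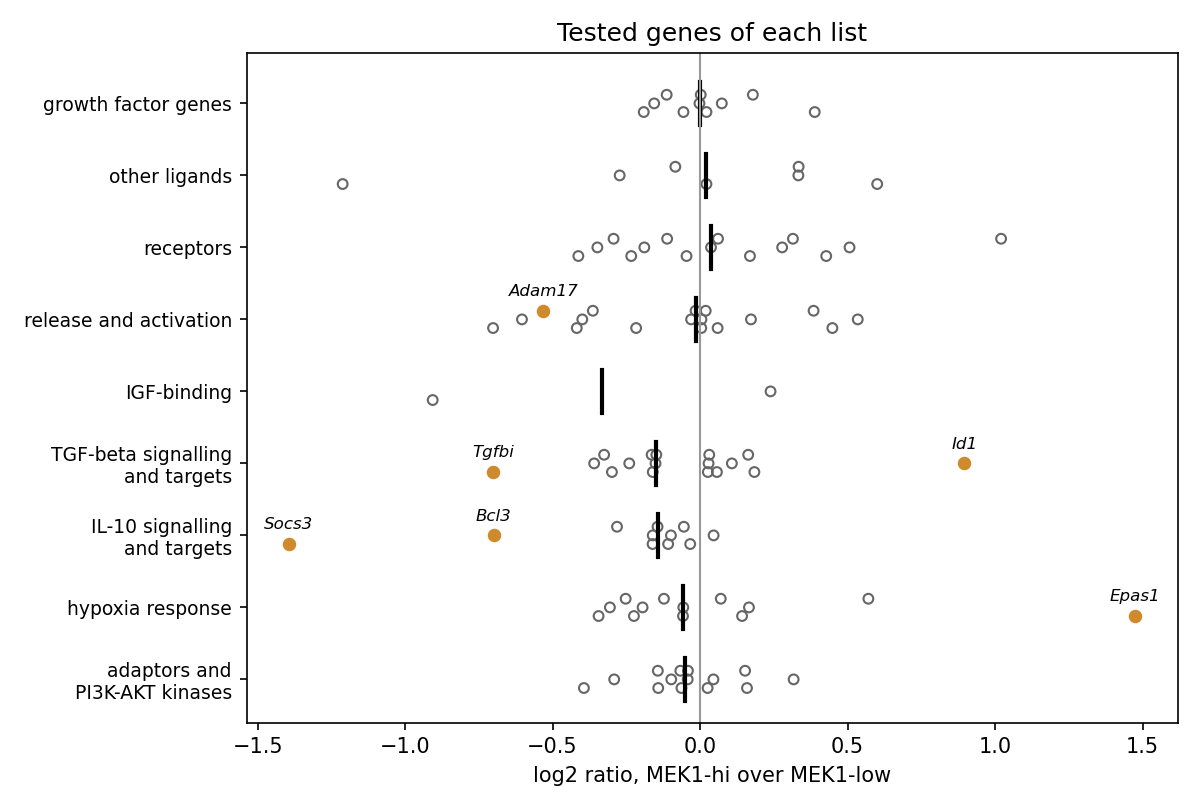
Log2 ratio of MEK1-hi over MEK1-low for the tested genes of each list (open circles, not called; orange, called and named), with a vertical bar at the list's median and points offset vertically for legibility. Called genes stand beside the growth factor genes and not among them: Adam17 at -0.53, Tgfbi at -0.70, Id1 at 0.90, Socs3 at -1.39, Bcl3 at -0.70 and Epas1 at 1.48.

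Further ligands of the same families were scarce. Of 22, only 7 were tested, and Cuffdiff called 0 of them, beside 2.44% of all loci tested. At p below 0.05 before adjustment in the authors' deposited table, 0 were higher and 1 lower, beside 3.53% and 5.12% of all loci tested. None of the 22 exceeded 2.51 FPKM in either group. Vegfc, a lymphatic vessel factor, stood at 1.08 FPKM with MEK1-hi and 2.51 FPKM with MEK1-low exosomes (p = 0.0182, q = 0.322 in the authors' deposited table). Igf2, in a locus joined with Gm49394, stood at 2.12 and 1.40 FPKM, MEK1-hi first. Csf2, Epgn and Il20 were listed at 0 in both groups. Of 9 genes for IGF-binding proteins and their partners, 2 were tested and 0 called, beside 2.44% of all loci tested. Of the 2, 0 had p below 0.05 before adjustment in the authors' deposited table, beside 8.66% of all loci tested. Igfbp4 stood at 18.0 FPKM with MEK1-hi and 15.3 FPKM with MEK1-low exosomes.

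Markers of the labelled cell type were abundant and summed to 20989 FPKM with MEK1-hi and 19958 FPKM with MEK1-low exosomes over 12 genes. Of these 1 fell, Cd14, to 136 FPKM with MEK1-hi exosomes, against 213 FPKM with MEK1-low exosomes (q = 0.00349 in the authors' deposited table). Over all loci tested, 1.69% were called lower. Growth factors also come from other cells of a tumour. Fibroblast and fibrosarcoma markers summed to 11.3 FPKM with MEK1-hi and 12.3 FPKM with MEK1-low exosomes over 10 genes, none of them at 0. The highest was Postn at 4.01 and 3.74 FPKM. Of 8 tested, 0 were called, beside 2.44% of all loci tested. Endothelial markers summed to 2.72 and 4.48 FPKM over 8 genes, with Tek and Cldn5 listed at 0 in both groups. Platelet markers summed to 8.23 and 7.11 FPKM over 6 genes, most of it from Ppbp (7.34 and 5.89 FPKM). The other platelet markers stood under 1 FPKM in both groups, with Gp9 listed at 0. T cell markers summed to 0.624 and 0.948 FPKM over 8 genes. Neutrophil markers summed to 53.4 and 73.3 FPKM over 8 genes, all of it from Csf3r (30.8 and 37.8 FPKM) and S100a8 (22.6 and 35.5 FPKM), with the other 6 listed at 0 in both groups. Their part in the levels above was not tested. In these bulk samples, fewer cells of a type and less RNA per cell cannot be told apart.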

How the data were processed

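RNA from 4 macrophage samples, 2 per group, was sequenced as paired-end reads from stranded mRNA libraries made with 750 ng of RNA, per the labels' protocols. Per the submitters' processing notes, FastQC 0.73, TopHat, Cufflinks and Cuffdiff were used with build mm10, and their settings are not given in the sources used here. A single table was deposited by the authors, in the layout of Cuffdiff's gene test, with 1 FPKM value per group, a test score and a p-value and q-value. Values per sample were not used here, and depth is unknown because FPKM keeps no counts. The p-values deposited by the authors cover only the variation among these samples, possibly technical.

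The column headed MEK1 exo was taken as MEK1-hi and that headed GFP exo as MEK1-low, through the treatment labels. Ratios are MEK1-hi over MEK1-low with no pseudocount, and the deposited log2 fold change was not used because of error text in some cells. A gene was called at a q-value under 0.05 in the authors' deposited table. Recomputed q-values (Benjamini-Hochberg, 12648 loci) matched the deposited ones within 5.19e-07. Medians leave out the 42 tested loci at 0 in a group. Of 55029 identifiers, 54771 had a symbol in GENCODE M21, whose gene positions in the same build are printed. The loci that the authors tested reach beyond these positions for Igf1, Pdgfa and Pdgfb. Intervals rest on a normal reading of the deposited p-value.

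All 10 growth factor genes are named, with the called genes of each list and its most abundant or textbook partners. Members and lists were chosen with earlier results of these data known. Python 3.11.15 and scipy 1.17.1 were used, and the formulas were tested on simulated data. Alternatives comprised other thresholds, pseudocounts, scalings, expression floors and single-gene loci.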

Additional observations from a re-analysis of the deposited data

How the results depend on the processing

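The count of growth factor genes called was 0 at q under 0.01, 0.05 and 0.1, with an adjustment over loci of at least 1 FPKM, with an absolute test statistic of at least 2 and at a floor of 5 FPKM. At p below 0.05 before adjustment, from the authors' deposited table, it was 1, Pdgfc, beside 1095 loci in all, against 309 called. Other scalings moved every log2 ratio by at most 0.044, and 5 members were higher and 5 lower in the main values. Pdgfa changed sign, from -0.0021 to 0.041 when both groups were rescaled to equal FPKM totals and to 0.037 when rescaled by the upper quartile. The median of the 2 tested IGF-binding genes was -0.33 and became -0.19 on the log2(FPKM + 1) scale, which by construction shrinks low values. With an absolute statistic of at least 2, a requirement added for the lists after seeing the data, the count of hypoxia genes called higher was 0 in place of 1. Errors worked back from the deposited statistic, also added after seeing the data, were the natural log of the ratio divided by that statistic. They stayed within 1.5 times those from the p-value, which are on the log2 scale, for all 10 genes. That closeness rests on the natural log chosen, so it is no check of the intervals. The log2 ratio divided by the statistic would give larger errors and wider intervals, which were not compared. Whether the interval of Pdgfc, with a lower end of 1.01, would then still leave out equality was not checked.

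Leaving out each replicate in turn was not possible with 1 value per group. No paired analysis was possible because the table carries group values and no values per sample. On the log2 scale the intervals of Il10 and Hbegf, the members of lowest level, were the widest of the 10.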

Other observations

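Macrophages make secreted growth factors beyond these 10, and a further list of 33 was assembled after the values were seen, so its counts are a description. Of its 26 tested loci, 3 were higher and 0 lower at q under 0.05 in the authors' deposited table, beside 0.751% and 1.69% of all loci tested. Gas6 and Pros1, both ligands of the TAM receptors that drive the clearance of dying cells, rose to 37.5 and 7.60 FPKM with MEK1-hi exosomes, against 18.0 and 4.41 FPKM with MEK1-low exosomes (q = 0.00349 and q = 0.0110 in the authors' deposited table). The locus that joins Ang, which encodes the vessel-promoting ribonuclease angiogenin, with Rnase4 rose to 27.5 FPKM with MEK1-hi exosomes, against 11.2 FPKM with MEK1-low exosomes (log2 ratio 1.30, q = 0.00349 in the authors' deposited table), and reads of its genes cannot be told apart.

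Several others had unadjusted p-values under 0.05 without passing, 5 higher in all (the 3 above included) and 5 lower, of 26 tested. The shares over all loci tested were 3.53% and 5.12%. Gdf15, Lif and Bmp1 were among the lower (q = 0.165, 0.162 and 0.248 in the authors' deposited table). Mdk, which encodes midkine, stood at 10.6 FPKM with MEK1-hi and 6.35 FPKM with MEK1-low exosomes, and Metrnl at 110.3 and 82.7 FPKM in the same order (each q = 0.153 in the authors' deposited table). Artn, a ligand of the GDNF family, stood at 0.604 FPKM with MEK1-hi and 2.37 FPKM with MEK1-low exosomes (q = 0.0632 in the authors' deposited table), and Nampt at 107 and 148 FPKM in the same order (q = 0.0998 in the authors' deposited table). Grn, which encodes progranulin, was the most abundant of this list at 899.9 FPKM with MEK1-hi and 809.6 FPKM with MEK1-low exosomes (q = 0.999 in the authors' deposited table).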
